A study of Rattus norvegicus with 8 samples.

Results

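Expression of Fas, of its ligand Faslg and of the proteins that carry a death signal from receptors of this family was examined in rat primary thymocytes during glucocorticoid-induced apoptosis. The genes were Fas, Faslg, Fadd, Tradd, Cflar, Ripk1 and Daxx, and their probes were chosen by the gene name printed in the scanner files, where Fas carried its older name Tnfrsf6. These 7 genes had 11 of the 41012 probes on the array. Fas had 2 probes, Tradd had 3, Daxx had 2 and the other genes had 1 each. Thymocytes came from adrenalectomized male Sprague-Dawley rats, so the cells of both groups had been deprived of adrenal hormones, and the labels describe preparations in which the thymi of 3 rats were pooled. Control cells were cultured for 6 hours without steroid, and Dex cells for 6 hours with 100 nM of the synthetic glucocorticoid dexamethasone. The labels give 4 arrays per group, numbered 1 to 4, whereas the series design speaks of 3 biological replicates without naming the arrays. All 8 arrays were used, and p-values measure the spread between these arrays, which may be partly technical.

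Fas is a cell surface receptor with a death domain in its cytoplasmic tail. When Fas ligand clusters it, the adaptor Fadd binds that domain and brings in procaspase-8, a step that c-FLIP, the product of Cflar, can block. Tradd and Ripk1 serve the related receptors of tumor necrosis factor, and Daxx was first described as a protein that binds the tail of Fas and is also a histone chaperone in the nucleus. Fas is carried by thymocytes, Fas ligand is known chiefly from activated T cells and natural killer cells, and death of thymocytes after glucocorticoids is known mainly as a mitochondrial process.

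Fas was the one gene of the 7 that passed the test, and it fell, although 0 of the 7 passed with the replicate block, with 75th percentile scaling, with slide as a fixed block or with any 1 array left out. Cflar was lower on every Dex array than on every Control array, but it did not pass after adjustment. Faslg, Fadd and Ripk1 did not pass either, and on these genes the 4 Dex arrays separated into a pair above and a pair below most of the Control values. Tradd and Daxx differed little between the groups at their brightest probes. In total 1 of 7 genes was called lower and 0 were called higher, beside 0.215% of all probes called lower and 0.778% called in either direction (limma, adjusted p under 0.05 over all probes). By sign alone, 2 of the 7 were higher and 5 lower at the brightest probe, with a median log2 fold change of -0.19, against a median of 0.0003 over all probes.

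Each probe is a 60-base oligonucleotide in the sense of the mRNA. A set of 6 is shown, to let the places at which Fas, Tradd and Daxx were read upstream be seen, with Ripk1 beside them. The probes of Faslg, Fadd and Cflar and the 3′-most probes of Fas and Tradd are not shown, since they may lie in untranslated regions, which was not analyzed here. They are written 5′ to 3′ as the scanner files hold them, and each can be read through without a stop codon in at least 1 frame.
Fas probe 2: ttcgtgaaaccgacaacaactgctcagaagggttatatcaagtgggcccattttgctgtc
Tradd probe 2: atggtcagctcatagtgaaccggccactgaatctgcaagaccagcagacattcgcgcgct
Tradd probe 3: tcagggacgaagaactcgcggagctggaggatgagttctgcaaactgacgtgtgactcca
Ripk1 probe 1: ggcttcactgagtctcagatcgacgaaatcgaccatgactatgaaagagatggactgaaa
Daxx probe 1: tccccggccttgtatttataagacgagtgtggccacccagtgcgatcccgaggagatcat
Daxx probe 2: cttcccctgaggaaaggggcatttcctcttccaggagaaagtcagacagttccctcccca
Positions are those of the scanner files, on the rn3 build. Fas probe 1 lay at chr1:238437494-238437553 on the plus strand, and Fas probe 2 lay 13948 bases upstream of it at chr1:238423546-238423605. Tradd probes 2 and 3 lay 581 and 893 bases upstream of Tradd probe 1, measured on the genome. Tradd probe 2 covered 204 bases of the genome and Daxx probe 1 covered 1312, so each of these 60-base probes crosses a junction between exons. The remaining probes each matched 60 continuous bases, and which exon or untranslated region they fall in was not analyzed here.

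All 11 probes were well above background on all 8 arrays, and no spot was saturated. The 13 thymocyte markers (Cd3e, Cd4, Cd8a, Rag1 and others) were above background on every array as well. Across the whole array, 24911 to 34476 probes were above background. Arrays Dex 1 and Dex 2 had the fewest, with 26474 and 24911, and the groups did not differ beyond their spread (exact two-sided permutation test, p = 0.314).

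**Figure D1:**
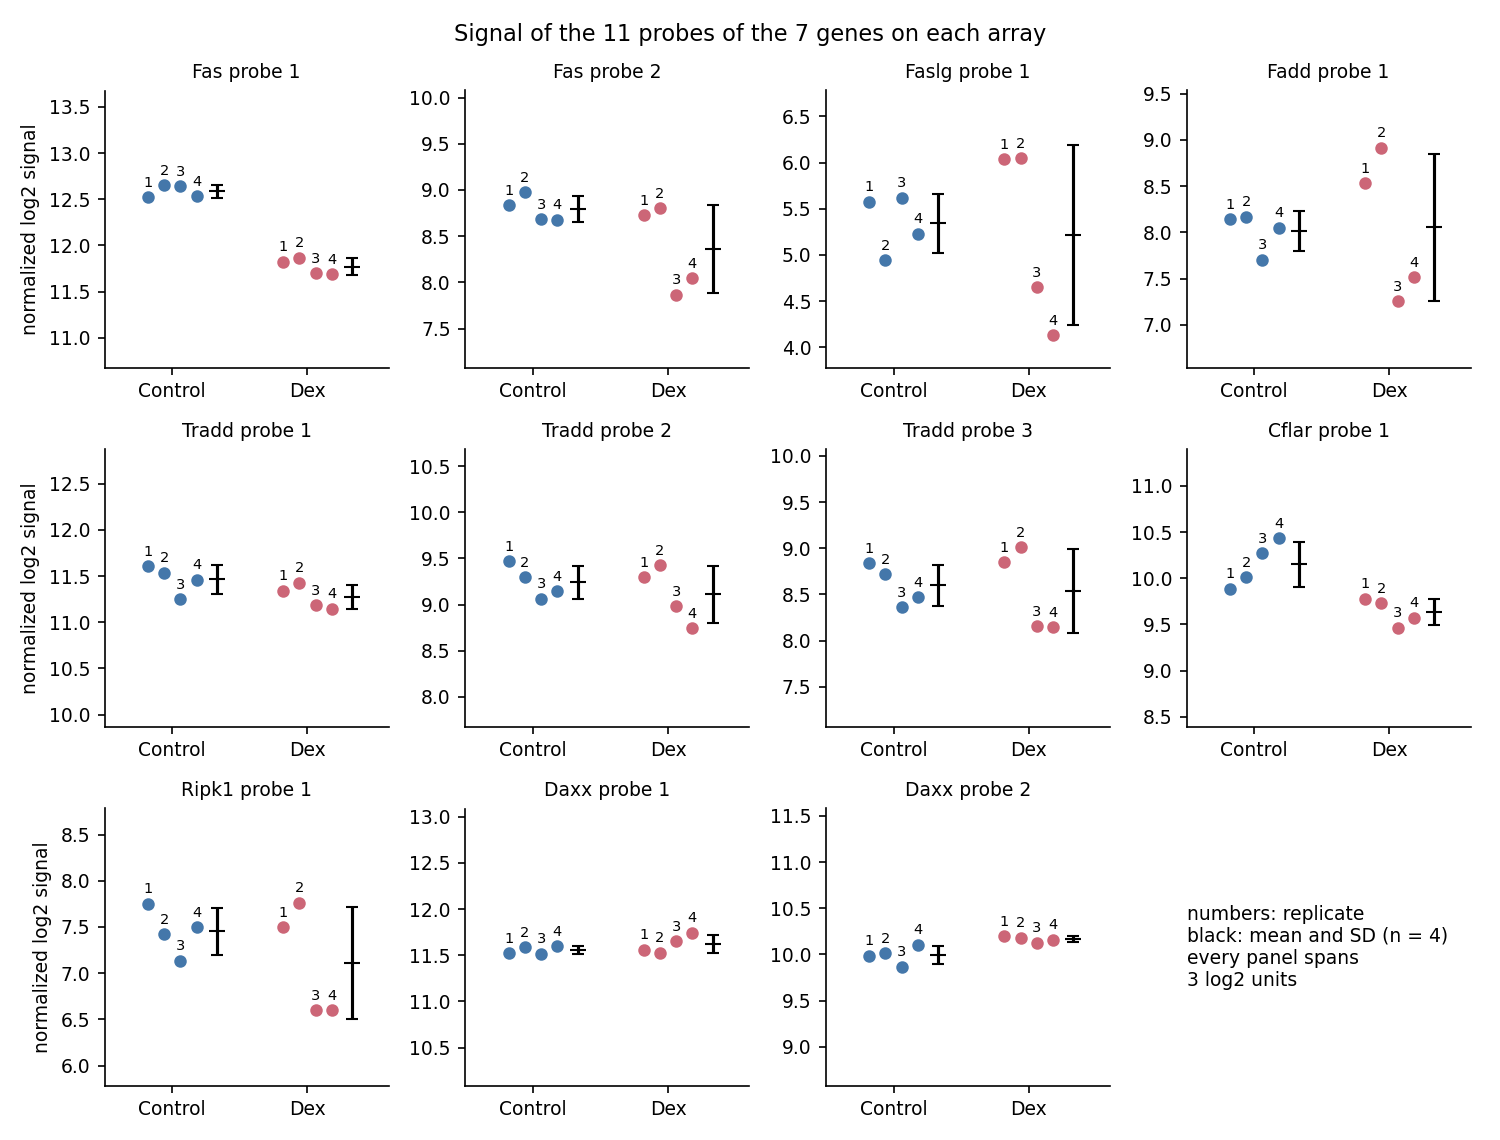
Normalized log2 signal (vertical axis) of each of the 11 probes on the 4 Control arrays (blue) and the 4 Dex arrays (red), with the replicate number above each point and the mean and SD (n = 4) in black. The Dex points of Fas probe 1 lie between 11.69 and 11.87, all below the Control points, while those of Faslg, Fadd and Ripk1 separate into arrays 1 and 2 above arrays 3 and 4.

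Fas, the receptor, was read most brightly by probe 1, the probe nearest to the 3′ end. Its log2 signal was 12.52, 12.65, 12.64 and 12.53 on Control arrays 1 to 4, and 11.82, 11.87, 11.70 and 11.69 on Dex arrays 1 to 4. The groups were far apart and each was narrow. The mean fell from 12.59 ± 0.07 (SD, n = 4) to 11.77 ± 0.09 (SD, n = 4). The log2 fold change was -0.82, with an SE of 0.14 and a 95% interval of -1.13 to -0.51, which is a 1.76-fold fall (limma, adjusted p = 0.0418). In bulk RNA, fewer cells that carry a transcript and less transcript per cell cannot be told apart.

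At Fas probe 1 the size of the fall was steady, and the call was not. Taken by replicate number, the difference ranged from -0.94 to -0.70. Since the groups did not overlap, any pairing of the arrays would give a fall in 4 of 4 pairs. With any 1 array left out the log2 fold change stayed between -0.85 and -0.79, but limma's adjusted p rose to between 0.0890 and 0.183, and Fas was called in 0 of 8 such fits. With the replicate number as a block, the adjusted p was 0.177. Slides also overlapped unequally with the groups, since Control 1 and Dex 3 were on one slide, Control 2 to 4 on another and Dex 1, 2 and 4 on the last. On the slide that held both groups the difference was -0.82, and with slide as a fixed block, which rests on that pair alone, the adjusted p was 0.771. Scaling each array to its 75th percentile gave -0.81 with an adjusted p of 0.479.

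**Figure D2:**
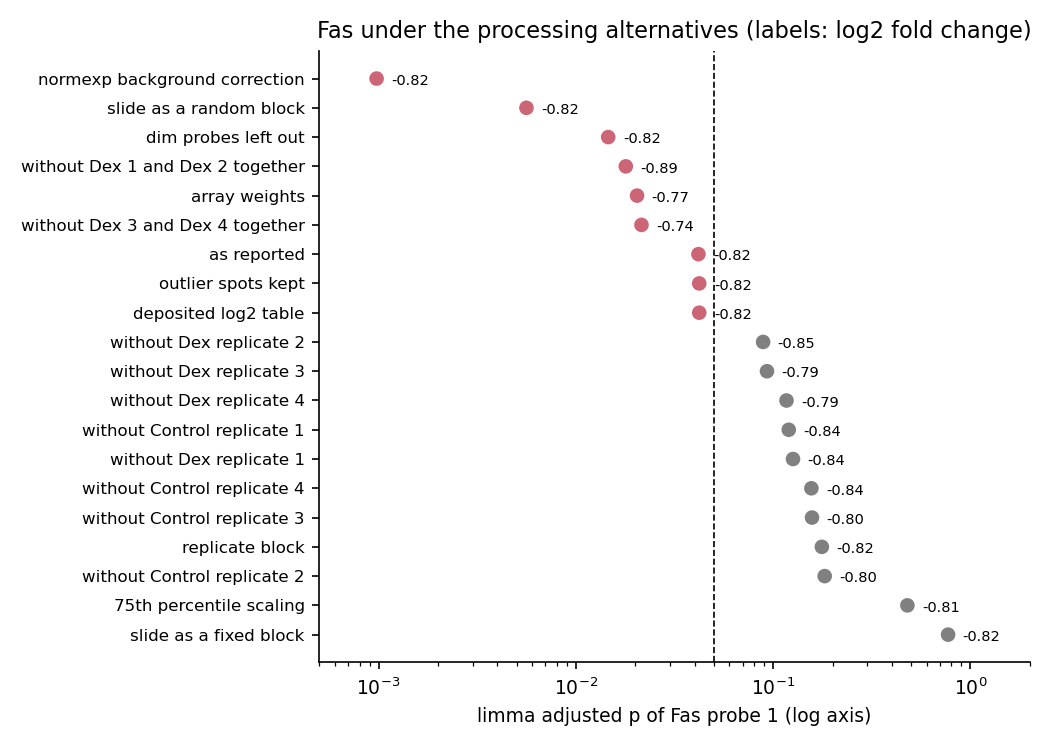
Adjusted p of Fas probe 1 from limma (horizontal log axis) as reported and under each alternative with such a p, with the log2 fold change printed beside each point and the threshold of 0.05 as a dashed line. Red points passed. The printed fold changes lie between -0.89 and -0.74, whereas the adjusted p runs from 0.000976 to 0.771.

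The upstream Fas probe gave a smaller and less regular difference. The log2 signal of probe 2 was 8.84, 8.97, 8.68 and 8.68 on Control arrays 1 to 4, and 8.73, 8.81, 7.86 and 8.04 on Dex arrays 1 to 4. Arrays Dex 1 and Dex 2 lay within the Control range and arrays Dex 3 and Dex 4 below it. The log2 fold change was -0.43 with a 95% interval of -1.0 to 0.14 (limma, adjusted p = 0.617). Without Dex 1 and Dex 2 it was -0.84 and passed (adjusted p = 0.0235), in a fit that called 7143 probes against 319 as reported, and without Dex 3 and Dex 4 it was -0.03. The changes at both probes differed by -0.39 (probe 1 minus probe 2), which did not pass (exact two-sided permutation test, p = 0.114, adjusted p = 0.571 over the 5 probe pairs of Fas, Tradd and Daxx). With 4 arrays against 4 the smallest p of this test is 0.0286, so 1 pair alone could not pass after adjustment over 5. The mean over both Fas probes was -0.63.

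The probes whose 8 values most resembled those of Fas were sought by the root mean square of the differences between the profiles, each first centered on its own mean over the 8 arrays, among 10646 probes with a gene symbol that were above background on all arrays. The nearest were Vps37b (0.060), Eftud1 (0.063), B3gnt1 (0.063), Sorl1 (0.086) and Gimap5 (0.087), in log2 units. Their log2 fold changes lay between -0.87 and -0.71, a range that the choice by likeness to Fas fixes.

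Faslg, the ligand, was read by 1 probe printed in 10 spots on each array. Its log2 signal was 5.58, 4.94, 5.62 and 5.23 on Control arrays 1 to 4, and 6.03, 6.05, 4.65 and 4.13 on Dex arrays 1 to 4. Dex 1 and Dex 2 were thus above every Control array, and Dex 3 and Dex 4 below every one. The means of the pairs were 1.65 apart. The 10 spots of an array varied by an SD of 0.073 to 0.175, which covers the noise of spots within an array and not the spread between cultures. Over all 4 Dex arrays the log2 fold change was -0.13 with a 95% interval of -1.18 to 0.93, which is too wide to exclude a change of the size seen for Fas in either direction (limma, adjusted p = 0.949).

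The sign for Faslg depended on the arrays. Without Dex 3 and Dex 4 its log2 fold change was 0.70 (limma, adjusted p = 0.0793), and without Dex 1 and Dex 2 it was -0.95 (adjusted p = 0.0535). Neither passed the threshold.

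Fadd, the adaptor that links Fas to procaspase-8, separated in the same way. Its log2 signal was 8.14, 8.17, 7.70 and 8.05 on Control arrays 1 to 4, and 8.53, 8.92, 7.25 and 7.51 on Dex arrays 1 to 4. Again Dex 1 and Dex 2 lay above all Control arrays and Dex 3 and Dex 4 below them. The log2 fold change was 0.04 with a 95% interval of -0.83 to 0.90 (limma, adjusted p = 0.983). The SD was 0.22 among Control arrays and 0.80 among Dex arrays.

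Cflar encodes c-FLIP, the inhibitor that competes with procaspase-8 for Fadd. Its log2 signal was 9.89, 10.01, 10.27 and 10.43 on Control arrays 1 to 4, and 9.78, 9.73, 9.47 and 9.57 on Dex arrays 1 to 4. The groups did not overlap, although Control 1 and Dex 1 were only 0.11 apart. The Control arrays averaged 10.15 ± 0.25 (SD, n = 4) and the Dex arrays 9.64 ± 0.14 (SD, n = 4). The log2 fold change was -0.51 with a 95% interval of -0.92 to -0.11, and the adjusted p of 0.329 (limma) missed the threshold.

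At the brightest probe, 2 of the 7 genes (Fas and Cflar) had groups that did not overlap, beside 9.11% of all probes. The same genes passed a signal to noise statistic rebuilt after the methods of the study, with a nominal p of 0.01 and a fold of 1.2 as limits, which called 6.79% of all probes. The one-tailed nominal p of this statistic, from permutations pooled over all probes, was 3.34e-05 for Fas and 0.00626 for Cflar.

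Tradd, the adaptor of tumor necrosis factor receptor 1, was read at 3 places. The brightest, probe 1 at the 3′ end, was 11.61, 11.54, 11.25 and 11.46 on Control arrays 1 to 4, and 11.34, 11.43, 11.19 and 11.14 on Dex arrays 1 to 4. Its log2 fold change was -0.19 with a 95% interval of -0.54 to 0.16 (limma, adjusted p = 0.731). For probes 2 and 3 the changes were -0.13 (-0.59 to 0.33) and -0.06 (-0.64 to 0.52), with adjusted p-values of 0.870 and 0.956. Group means thus differed little at any of the probes, and no difference in change between Tradd probes passed (exact two-sided permutation tests, adjusted p of 0.571 to 0.600 over the 5 pairs). The limit given for the Fas pair holds for these tests too.

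The separation within Dex was larger at the Tradd probes farther from the 3′ end, which were also the dimmer ones. The mean of Dex 1 and Dex 2 exceeded that of Dex 3 and Dex 4 by 0.22 at probe 1, by 0.50 at probe 2 and by 0.78 at probe 3, the farthest from the 3′ end. The Fas probes had the same order, with 0.15 at probe 1 and 0.81 at the upstream probe 2. Here too the upstream probe was the dimmer, with a Control mean of 8.79 against 12.59. For Daxx the values were small, -0.15 at probe 1 and 0.05 at probe 2, which lay 1774 bases upstream and was the dimmer. Among genes read by 1 probe, the difference was 0.24 for Cflar, 1.34 for Fadd, 1.03 for Ripk1 and 1.65 for Faslg. The Control means of these genes were 10.15, 8.02, 7.45 and 5.34. Over 781 genes with probes at least 1000 bases apart, the median log2 signal of the most 5′ probe minus that of the most 3′ probe, relative to its mean over the 8 arrays, was 0.10 and 0.14 on Dex 1 and Dex 2, and between -0.09 and 0.01 on the other 6 arrays. The part of this difference between arrays, or of brightness, in the values of Fas, Tradd, Faslg, Fadd and Ripk1 was not tested.

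**Figure D3:**
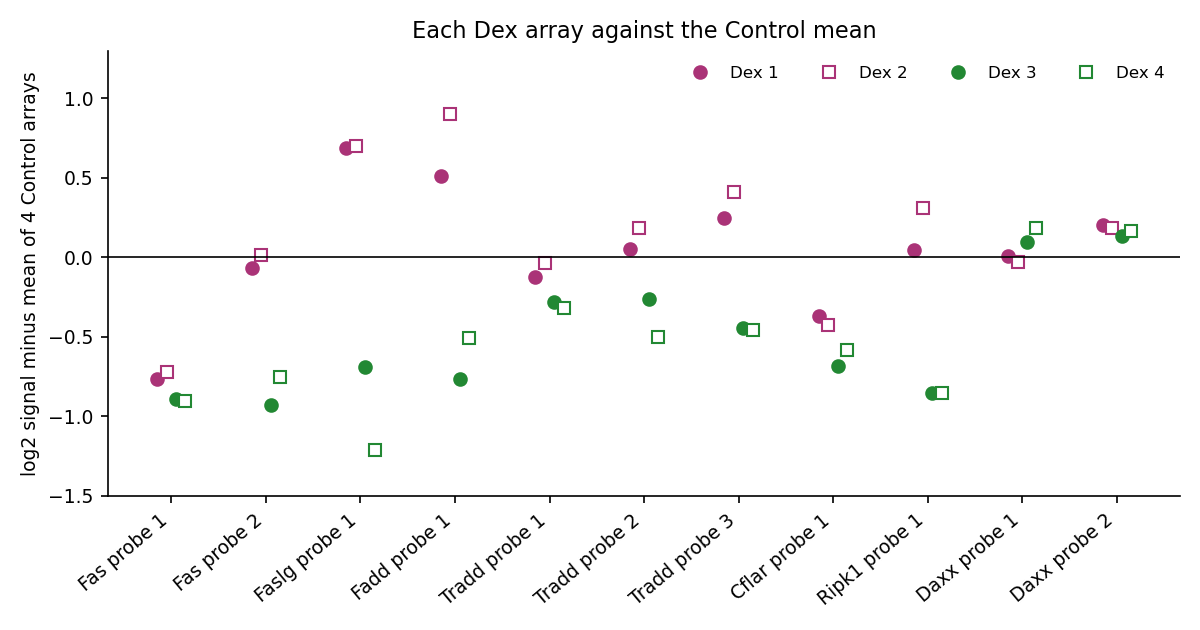
Log2 signal of each Dex array minus the mean of the 4 Control arrays (vertical axis) for each probe, with Dex 1 and 2 in purple and Dex 3 and 4 in green. All points of Fas probe 1 and Cflar lie below 0, those of Faslg and Fadd lie on both sides, and those of Daxx probe 2 lie between 0.13 and 0.20.

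Ripk1, a kinase that passes signals from death receptors to survival or death, also separated. Its log2 signal was 7.75, 7.42, 7.14 and 7.50 on Control arrays 1 to 4, and 7.50, 7.76, 6.60 and 6.60 on Dex arrays 1 to 4. Dex 3 and Dex 4 were below every Control array, and Dex 1 lay within the Control range and Dex 2 just above it. The log2 fold change was -0.34 with a 95% interval of -1.05 to 0.37 (limma, adjusted p = 0.767). Without Dex 1 and Dex 2 it was -0.85 and passed (adjusted p = 0.0353), in a fit that called 7143 probes, and without Dex 3 and Dex 4 it was 0.18.

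Daxx, which binds Fas and acts in the nucleus, had a smaller separation, and at probe 1 it ran the opposite way. Probe 1 was 11.52, 11.59, 11.51 and 11.60 on Control arrays 1 to 4, and 11.56, 11.53, 11.65 and 11.74 on Dex arrays 1 to 4. Here Dex 3 and Dex 4 lay above every Control array and Dex 1 and Dex 2 within the Control range. Its log2 fold change was 0.07 with a 95% interval of -0.24 to 0.37 (limma, adjusted p = 0.906). Probe 2 ran from 9.87 to 10.11 on Control arrays and from 10.13 to 10.19 on Dex arrays. These groups did not overlap, by a margin of 0.02, and the log2 fold change of 0.17 did not pass (-0.14 to 0.48, adjusted p = 0.722).

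**Figure D4:**
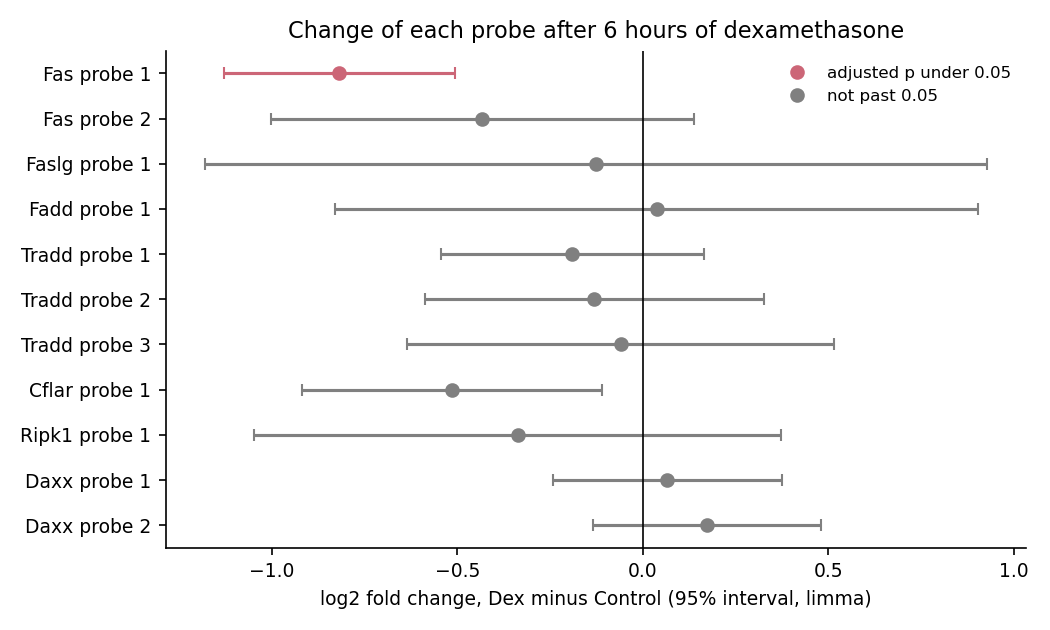
Log2 fold change of Dex over Control (horizontal axis) of each of the 11 probes with its 95% interval from limma, red where the adjusted p was under 0.05. The intervals of Fas probe 1 and Cflar lie below 0, and those of Faslg and Fadd are the widest.

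The difference between the pairs of Dex arrays was not particular to these genes. Its median absolute size over all probes was 0.71, and the 11 probes ran from -0.15 (Daxx probe 1) to 1.65 (Faslg). The median probe had an SD of 0.28 among Control arrays and of 0.50 among Dex arrays. On the slide shared by Control 1 and Dex 3, the log2 difference was -0.97 for Fas probe 2, -0.92 for Faslg, -0.89 for Fadd and -1.15 for Ripk1, and -0.42 for Cflar.

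Markers of other cells moved with these arrays too. The summed signal of 9 natural killer and cytotoxic cell markers was 3383 to 3833 on Control arrays, 2930 and 2587 on Dex 1 and Dex 2, and 4117 and 5055 on Dex 3 and Dex 4. Nkg7, the marker that carried most of that rise, was 9.49 and 8.89 on Dex 1 and Dex 2 and 11.45 and 11.80 on Dex 3 and Dex 4 in log2 signal. Other markers of the list ran the opposite way, as Faslg did, among them Prf1, with 11.01 and 10.92 on Dex 1 and Dex 2 and 10.15 and 10.35 on Dex 3 and Dex 4. Of these 9 markers, 4 were above background on all 8 arrays and 0 on none. The summed signal of 10 stromal markers was 1025 to 1490 on Control arrays, 967 and 784 on Dex 1 and Dex 2, and 2213 and 2130 on Dex 3 and Dex 4, with 6 above background on all arrays and Dcn on none. The summed signal of 5 B cell markers ran the other way, with 388 to 528 on Control arrays, 613 and 539 on Dex 1 and Dex 2, and 263 and 370 on Dex 3 and Dex 4, and 3 of them were above background on all arrays. That of 3 erythroid markers was 304 to 1382 on Control arrays, 1084 and 2353 on Dex 1 and Dex 2, and 343 and 1058 on Dex 3 and Dex 4. For 9 macrophage markers it was 4454 to 6160 on Control arrays and 4294 to 8766 on Dex arrays, a sum that did not separate by these pairs. Within that list C1qb and C1qc, which encode subunits of complement C1q, and Cd163 were higher on Dex 3 and Dex 4 than on Dex 1 and Dex 2. C1qa, Cd14 and Adgre1 ran the opposite way. The log2 signal of C1qa, a further C1q subunit, was 7.96 and 8.05 on Dex 1 and Dex 2 and 6.59 and 7.18 on Dex 3 and Dex 4. C1qc was above every Control array on all 4 Dex arrays. Thymocyte markers summed to 330096 to 363231 on Control arrays over the 12 genes with a value on every array, to 357004 and 348485 on Dex 1 and Dex 2, and to 257662 and 261583 on Dex 3 and Dex 4. Cd3d and Cd3g, the brightest of these markers, were lower on Dex 3 and Dex 4 than on any other array, whereas Cd8a and Lck were higher on Dex 3 and Dex 4 than on Dex 1 and Dex 2. Against Control, Lck, Cd5 and Ptcra were lower on every Dex array, with log2 fold changes of -0.68, -0.70 and -0.61. Cd8b, which lacked a value on Control 1, was higher on every Dex array (0.52). None of the genes of these lists was called, and their part in the values of the death receptor genes was not tested.

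A wider set of 63 genes around the pathway was read in the same fit, and 50 of them were found on the array by name. None was called in either direction as reported (limma). For the 12 genes named below this depended on the processing. Of the 19 alternatives with an adjusted p, Bid passed in 6, Hipk2 in 5 and Birc3 in 3, in fits that called 562 to 7388 probes against 319 as reported. Tnfrsf21, Casp8, Ltb, Mdm2 and Casp8ap2 passed only without Dex 1 and Dex 2, where 7143 of 41012 probes were called. Ripk4 passed only without Dex 3 and Dex 4, where 7388 were called. By the methods' statistic, which called 6.79% of all probes, every named gene but Ripk4 and Tnfrsf21 passed. In the fit as reported, 20 were higher and 30 lower in Dex, and the median log2 fold change was -0.04. Groups did not overlap for 3 higher and 11 lower genes of the 50, beside 9.11% of all probes, a share that counts dim probes as well, whereas each gene of the lists stands by its brightest probe.

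Among 12 death receptors and ligands, 6 were higher and 6 lower. Tnfrsf21, death receptor 6, stood at -1.05 on the log2 scale (limma, adjusted p = 0.311), and at -0.27 with normexp background correction. On Control arrays its log2 signal was 5.43 to 5.95, and it was 3.83 to 5.24 on Dex arrays. Ltb, the membrane anchor of lymphotoxin, stood at -0.48 (adjusted p = 0.368). Neither passed the test.

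Among 18 genes of the receptor complex and the caspase branch, 12 were lower, 5 of them without overlap. Casp8, the initiator caspase that Fadd brings to Fas, stood at -0.70 on the log2 scale without passing (adjusted p = 0.295 in limma). Its log2 signal was 9.09, 8.80, 8.59 and 8.80 on Control arrays 1 to 4, and 8.50, 8.37, 7.68 and 7.95 on Dex arrays 1 to 4. Bid, the caspase-8 substrate that connects death receptors to mitochondria, stood at -0.66 (adjusted p = 0.112). It was 9.52 to 9.78 on Control arrays and 8.89 to 9.15 on Dex arrays, without overlap. Casp8ap2, a caspase-8 binding protein, and Faim, an inhibitor of Fas-induced death, stood at -0.45 and -0.41 (adjusted p = 0.387 and 0.419).

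The kinase and ubiquitin branch held 13 genes on the array, with 3 higher and 2 lower without overlap. Birc3, a ubiquitin ligase that acts on Ripk1, stood at a log2 fold change of -0.67 without passing (adjusted p = 0.166 in limma), and Ripk3, the kinase of necroptosis, -0.49 (adjusted p = 0.365). Rbck1, a subunit of the linear ubiquitin ligase complex, stood at 0.36 (adjusted p = 0.418). Ripk4 stood at 1.12 (adjusted p = 0.370), but its probe was above background on only 2 of the 4 Control arrays, and with normexp background correction the value was 0.16.

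Of 7 Daxx partners on the array, 5 were lower. Hipk2, a nuclear kinase, had a log2 fold change of -0.70 and the smallest adjusted p among the genes named from the lists (limma, 0.0970). It was 7.76 to 8.01 on Control arrays and 7.03 to 7.32 on Dex arrays. Mdm2, the ubiquitin ligase of p53, stood at -0.47 (adjusted p = 0.295). The 12 named genes were chosen for groups that do not overlap, so leaving out or pairing arrays could not turn their sign. It did not turn under the other alternatives run for them either. The sizes varied: Casp8 ran from -1.41 to -0.39, Tnfrsf21 from -1.85 to -0.27 and Ripk4 from 0.16 to 1.79.

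**Figure D5:**
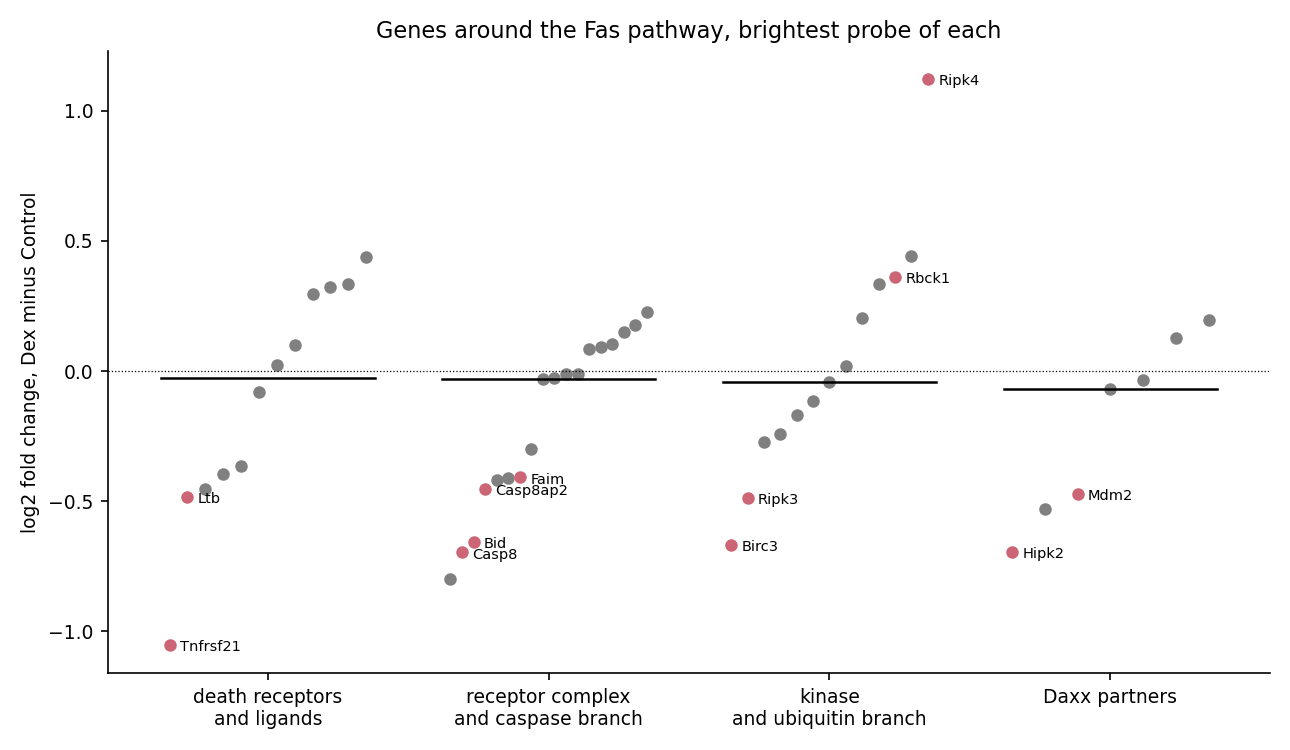
Log2 fold change of Dex over Control (vertical axis) of the brightest probe of each of the 50 genes in the 4 lists, ordered within a list, with the list median as a black line. Red points with names are the genes described in the text. The medians lie between -0.07 and -0.03, and no gene passed the adjusted threshold.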

How the data were processed

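RNA of 8 samples, 4 per group, was labeled with Cy3 and hybridized to Agilent arrays of the rat genome with a single dye, and the authors deposited the scanner output, with intensities from Feature Extraction 9.5.3.1, and a log2 table of normalized values. Per the file headers, the processed intensity is background-subtracted. Processed intensity was read again, outlier spots were set to missing, and log2 values were quantile normalized and summarized per probe by median polish, as in the study's methods. The result correlated with the deposited log2 table at 0.999999 or more on every array. Control spots were left out. Dex was compared with Control by limma 3.58.1 in R 4.3.3 over 41012 probes, two-sided, with Benjamini-Hochberg adjustment at 0.05, after a check on simulated data. The brightest probe stood for a gene. The methods' statistic is the difference of means over the sum of the SDs, with a null distribution from all 70 assignments of the arrays pooled over all probes. The study drew permutations of samples and probes instead, so its null and its calls need not be the same.

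Deviations of same-numbered arrays correlated at 0.40, 0.13, 0.55 and 0.18, which was read as a pairing by number, although Control 1 went as well with Dex 2 (0.40), Control 2 better with Dex 1 (0.19) and Dex 4 better with Control 3 (0.39). The genes, lists and tests were chosen with earlier results of these data known. From the lists, genes that passed were to be named first, then those above background whose groups did not overlap, by size of change, up to 12. Alternatives changed scaling, background correction, input table, filter on dim probes, outliers, block, slide, arrays, weights, test and probe choice. The number of arrays limits the precision. Names are those of the array design, and genes not matched by name were not analyzed here.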

Additional observations from a re-analysis of the deposited data

Results flagged for a closer look

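Of 46 groups of 4 arrays examined, 2 held an array apart from the rest by Dixon's ratio of the gap to the range, for which chance gives about 1 group in 20. Ltb stood high on Control 1, at 14.81 against 14.51 on the nearest array (ratio 0.841). Mdm2 stood high on Control 4, at 10.23 against 10.04 on the nearest array (ratio 0.888).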

How the results depend on the processing

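Fas kept its direction in all 22 alternatives and passed limma's adjusted threshold in 8 of the 19 with such a p. As its groups did not overlap at probe 1, leaving out or pairing arrays could not turn that direction. It did not pass with 75th percentile scaling (-0.81), the replicate block (-0.82), slide as a fixed block (-0.82) or any 1 array left out (-0.85 to -0.79), and it moved to -0.63 as the mean of its probes. The number of the 7 genes called was 0 in those fits (left-out arrays: 0 to 0) and 2 without Dex 1 and Dex 2 (Fas, Ripk1) and by the methods' statistic (Fas, Cflar). Probes called, 319 as reported, were 166 with 75th percentile scaling, 912 with normexp, 562 without dim probes, 81 with the replicate block, 1 with slide fixed, 1838 with slide random, 7143 without Dex 1 and Dex 2, 7388 without Dex 3 and Dex 4 (added after the data were seen), 920 with array weights, 2784 by the methods' statistic and 96 to 249 with 1 array left out (96 without Control 4, 249 without Dex 3). The fit with slide random used an estimated correlation between arrays of a slide of -0.24, on slides that overlapped unequally with the groups. Lower calls were 27.6% of those reported, 45.5% with normexp and 7.41% with the replicate block. Signs turned for genes that were not called: Faslg with normexp (0.00094), slide random (0.0062), without Dex 3 and Dex 4 (0.70), with array weights (0.44) and with 1 array left out (-0.40 to 0.23), Fadd with slide fixed (-0.89), without Dex 1 and Dex 2 (-0.63) and with 1 array left out (-0.25 to 0.30), and without Dex 3 and Dex 4 Ripk1 (0.18) and Daxx (-0.012). Tradd probe 2 turned without Dex 3 and Dex 4 (0.12) and with weights (0.033), and probe 3 with slide random (0.044), without Dex 3 and Dex 4 (0.33), with weights (0.19) and with 1 array left out (-0.22 to 0.072). The causes were not tested. The replicate block changed no other call among the 7 genes.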
